A study of Mus musculus with 4 samples.

Results

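To find the chromatin that white and beige adipocytes of inguinal white adipose tissue (iWAT) held open in common, and that the other cells of the depot did not, 666 of the 189598 deposited accessible regions (peaks), or 0.351%, were taken from single-nucleus ATAC-seq (snATAC-seq). The nuclei of each annotated cell type were pooled over all mice, and the openness of a peak was its counts scaled to a common total (CPM, counts per 1000000), which is the number of nuclei of the pool with a read in the peak, divided by all such counts of the pool. A member had at least 20 CPM in the cluster named Adipocyte (here white adipocytes) and in the cluster named Beige, a beige to white ratio above 0.5 and below 2, and in both populations at least 4 times the CPM of each of 6 other pools, which were adipocyte progenitors, vascular endothelial cells, vascular smooth muscle cells, macrophages with dendritic cells, B cells and T cells. The members were thus chosen by these pooled levels, and the levels and ratios by pool are described and not tested. The rule did not use the position or sequence of the members, and it did not compare treatments. Its pools held the nuclei of all groups, so a member below 20 CPM on day 0 could pass through treated mice. The rise of such a member is not independent of the rule. For scale, 9634 peaks had at least 20 CPM in both adipocyte populations, 4804 had it in every pool, 206 adipocyte peaks lay on the beige side (a ratio of 2 or more) and 62 on the white side (a ratio of 0.5 or less).

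White adipocytes store triglyceride in 1 large droplet and release it as fatty acids when noradrenaline acts on β-adrenergic receptors. Beige adipocytes arise in the same depot during cold or β3-adrenergic stimulation, carry many mitochondria and burn fuel as heat through Ucp1. Both belong to the adipocyte lineage, in which the nuclear receptor Pparg and the C/EBP factors open and hold the enhancers of lipid storage genes. ATAC-seq marks such enhancers and promoters because the transposase Tn5 cuts where nucleosomes are absent.

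The tissue came from male C57BL/6J mice aged 8 weeks, and no transgene or deletion is named. The 7 groups of 3 mice were day 0 at room temperature (22 °C), cold (6.5 °C) for 1, 3 or 7 days, and a selective agonist of the β3-adrenergic receptor that the labels shorten to CL (1 mg/kg) at room temperature for 1, 3 or 7 days. All groups went through the same 4 sequencing lanes, and the mouse and group of each nucleus were read from the deposited table of nuclei. Nuclei came from the whole depot.

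The white pool held 5935 nuclei and 24353694 counts and the beige pool 1069 nuclei and 4557758 counts, so that 20 CPM stood for 487 white and 91.2 beige nuclei, but for only 12.3 endothelial nuclei and 15.3 nuclei of the cluster named VSMC. In that last cluster all 6 skeletal muscle markers had their highest level of the 8 pools (1049 CPM summed), the 6 smooth muscle markers summed to 134 CPM, below the 304 CPM of the progenitors, and the 8 adipocyte markers summed to 1032 CPM. It is called the VSMC cluster below, after its deposited label. The 8 adipocyte markers summed to 1947 CPM in white and 1831 CPM in beige nuclei, against 271 to 1032 CPM in the other pools, and the 6 beige markers to 507 CPM in white and 854 CPM in beige nuclei. Adipocyte nuclei per mouse ran from 29 to 933, and 1 mouse stood apart with 29 adipocyte nuclei and 62318 counts (day 1 CL, mouse 1). Of 28031 barcode sequences 4218 occurred in more than 1 mouse, and each of the 4824 pairs joined mice of the same treatment and number on different days; 21.5% of these pairs had the same cell type, against 20.7% of all pairs of nuclei.

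To show the chromatin that the results turn on, 6 sequences are printed, each the central 200 bases of a member on the plus strand of mm10. The first 3 belong to members that rose with treatment, the next 2 lie upstream of Pck1, and the last, near Lep, is among the members with the highest levels. No exon of an annotated gene lies in any of them. Capitals mark matches, on either strand, to the C/EBP motif TTGCNNAA or to AGGTCA, the core site that nuclear receptors bind.
Upstream of Dpy19l1, chr9:24513353-24513552: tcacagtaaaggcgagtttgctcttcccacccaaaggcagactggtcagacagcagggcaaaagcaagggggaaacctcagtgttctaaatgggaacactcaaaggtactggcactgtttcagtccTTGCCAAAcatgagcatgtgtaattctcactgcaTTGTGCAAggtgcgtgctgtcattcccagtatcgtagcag
3′ side of Pnpla3, chr15:84190270-84190469: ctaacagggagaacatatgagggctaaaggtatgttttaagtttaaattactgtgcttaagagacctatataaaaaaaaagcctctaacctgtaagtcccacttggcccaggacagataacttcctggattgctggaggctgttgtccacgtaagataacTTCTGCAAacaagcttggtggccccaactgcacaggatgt
3′ end of Fasn, chr11:120804757-120804956: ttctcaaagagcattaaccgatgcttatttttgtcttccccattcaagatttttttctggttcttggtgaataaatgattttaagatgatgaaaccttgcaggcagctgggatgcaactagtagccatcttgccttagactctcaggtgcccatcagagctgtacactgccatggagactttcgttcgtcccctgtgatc
Far upstream of Pck1, chr2:173124388-173124587: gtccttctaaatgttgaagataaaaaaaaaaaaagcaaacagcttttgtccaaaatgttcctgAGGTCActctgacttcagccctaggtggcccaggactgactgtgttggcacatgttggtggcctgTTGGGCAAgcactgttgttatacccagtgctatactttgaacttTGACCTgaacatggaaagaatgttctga
Upstream of Pck1, chr2:173151884-173152083: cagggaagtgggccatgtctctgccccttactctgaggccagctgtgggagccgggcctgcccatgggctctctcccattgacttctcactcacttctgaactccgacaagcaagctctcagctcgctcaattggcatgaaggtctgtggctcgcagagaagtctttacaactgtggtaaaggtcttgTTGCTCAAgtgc
Upstream of Lep, chr6:29031868-29032067: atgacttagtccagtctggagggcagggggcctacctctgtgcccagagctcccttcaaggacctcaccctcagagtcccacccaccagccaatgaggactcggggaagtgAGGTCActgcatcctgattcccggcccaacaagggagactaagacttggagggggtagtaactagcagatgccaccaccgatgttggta
The Dpy19l1 sequence held 2 C/EBP matches, at bases 127 and 161. The sequences at Pnpla3 and just upstream of Pck1 held 1 C/EBP match each, while that at the end of Fasn held none of either motif. The far upstream Pck1 sequence held a C/EBP match at base 129 between AGGTCA matches at bases 64 and 173.

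Several of the members with the highest levels lay at or nearest to genes of fat storage and fat hormone release. The peak over the first part of Cidec (chr6:113434607-113436164), whose product fuses lipid droplets, had 68.9 CPM in white and 70.4 CPM in beige nuclei, and 7.83 CPM in the next pool, the VSMC cluster. In whole nuclei this was 1678 of the 5935 white nuclei (28.3%) and 321 of the 1069 beige nuclei (30.0%). The peak that runs over the 3′ end of Fasn, the fatty acid synthase gene (chr11:120803546-120806168, nearest gene start Dus1l), had 73.9 CPM in white and 67.4 CPM in beige nuclei, with 15.7 CPM in the VSMC cluster. It was the widest member, at 2622 bases.

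Far upstream of Lep, the gene of the satiety hormone leptin, the member 28252 bases before the gene start had 67.2 and 63.8 CPM in white and beige nuclei. A member 31054 bases before the start of Lpl, the lipase that frees fatty acids from blood lipoproteins, had 59.9 and 57.9 CPM. The member at the start of Pck1, which makes glycerol phosphate for triglyceride in fat cells, had 57.8 and 59.2 CPM and the lowest background of the 10 members with the highest levels, 4.88 CPM in endothelial nuclei. Others of these 10 lay in Alg9 (nearest gene start Ppp2r1b), in Ly86, over Carhsp1 with Pmm2, and at the 3′ end of Plin1, the perilipin that coats the lipid droplet (nearest gene start Kif7).

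The widest gap to the other pools was 18.7-fold, at a member 1474 bases before Ntrk3, with 35.5 CPM in white, 43.9 CPM in beige and at most 1.90 CPM elsewhere. It was followed by the far upstream Pck1 peak (nearest gene start Ctcfl), with 30.4 and 35.1 CPM against at most 1.65 CPM, and by members in introns of Gpat3, an acyltransferase of triglyceride synthesis (17.3-fold), Patj (16.9-fold) and Nrg4, which encodes a secreted ligand of brown and beige fat (16.9-fold, nearest gene start Fbxo22).

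**Figure D1:**
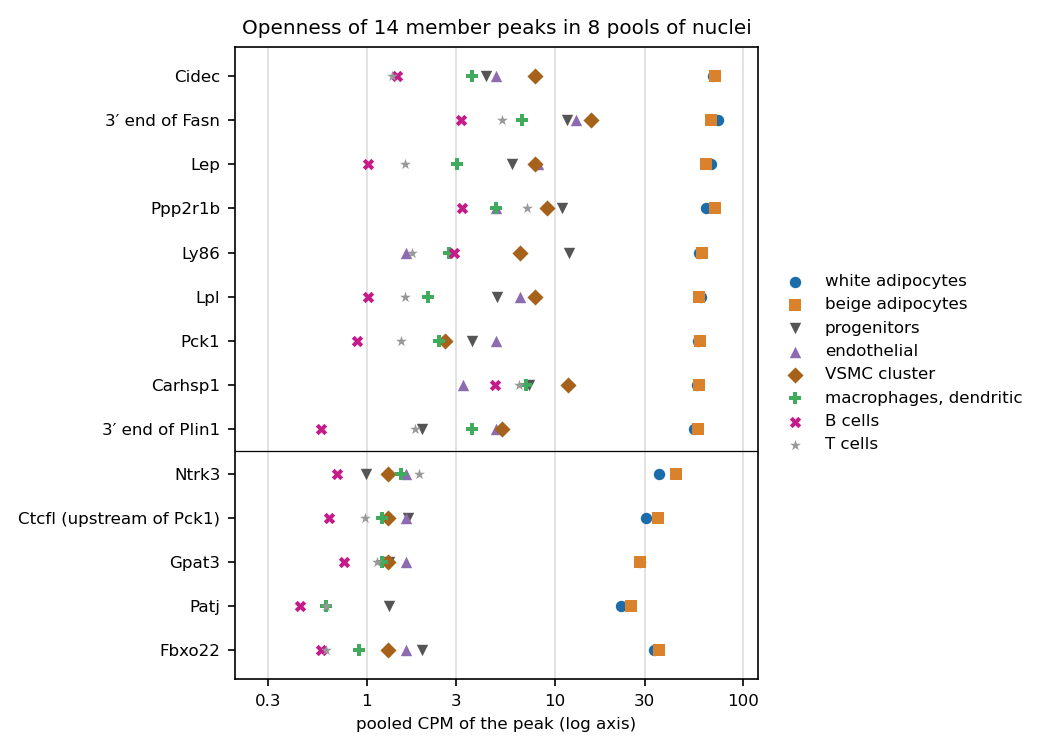
Pooled CPM (log axis) of 14 member peaks, 9 of the 10 with the highest adipocyte level above the line and the 5 with the widest gap below it, in white adipocytes, beige adipocytes and 6 other pools; pools with no read in a peak are not drawn. White and beige points nearly coincide, between 22.3 and 73.9 CPM, and all other points lie at 15.7 CPM or lower.

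Over all 666 members the lower of both adipocyte levels had a median of 25.7 CPM and ran from 20.0 to 68.9 CPM. The beige to white ratio had a median of 1.04 and quartiles of 0.933 and 1.18, so most members lay far from the limits of 0.5 and 2. The gap to the highest other pool had a median of 5.66-fold. A median member had a read in 11.3% of white and 12.2% of beige nuclei. The pool with the next highest level was the VSMC cluster for 242 members, progenitors for 207, endothelial cells for 164, macrophages with dendritic cells for 36, T cells for 10 and B cells for 7. Since the median member had 2 endothelial nuclei and 2 nuclei of the VSMC cluster with a read, these small pools set the fold by a few nuclei. No endothelial read was seen at 91 members and no VSMC cluster read at 55.

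Just inside the limits stood peaks nearest Acadm (4.00-fold over progenitors), Fbxw2 (4.00-fold over the VSMC cluster) and Fbxo21 (20.0 CPM in white nuclei). Just outside stood a peak nearest Gbe1, with 19.997 CPM in white nuclei, and peaks nearest Gm10097 and Ebf1, each with 19.966 CPM in beige nuclei.

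Most members lay away from gene starts, as most peaks did. Of the 666, 43 (6.46%) were centred within 2000 bases of the start of a protein-coding gene, beside 6.45% of the peaks of the white side, 4.37% of those of the beige side, 10.1% of all peaks, 55.0% of the peaks with at least 20 CPM in both adipocyte populations and 86.7% of the peaks open in every pool. By centre, 47.3% lay in introns, 44.7% between genes and 7.96% in exons. Among the few at gene starts were those of Adipoq, the gene of adiponectin (54 bases before the start), Plin1 (78 bases after it), Retn, the gene of resistin (266 bases before it), Pck1 and Cidec. The members had a median width of 935 bases and a median GC content of 47.4% in their central 500 bases, close to the 46.8% of all peaks and below the 65.4% of the peaks open in every pool. They held a median of 5 CpG dinucleotides, as did the peaks of the white and of the beige side, where peaks open in every pool held 45.

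No member lay on chromosome X, which has 4167 of the deposited peaks. On X, 80 peaks (1.92%) reached 20 CPM in both adipocyte populations, while on the autosomes this share ran from 4.26% to 6.38%. Chromosome 12 had the highest share of members, 54 of 8570 peaks (0.630%). The difference between X and the autosomes was not tested.

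Of 16 motif families searched on both strands in the central 500 bases, C/EBP and AGGTCA matches had the highest shares among the members. The C/EBP motif TTGCNNAA was found in 289 members (43.4%), against 25.9% of all peaks and 10.2% of the peaks open in every pool; its share was 29.6% on the beige side and 38.7% on the white side. AGGTCA was found in 298 members (44.7%), against 31.1% of all peaks, 62.6% on the beige side and 24.2% on the white side, so that the members stood between both sides. A direct repeat of the kind bound by PPAR and RXR, searched in a strict form that contains AGGTCA, was found in 13 members (1.95%) and in 0.645% of all peaks. It was also in 4 peaks of the beige side (1.94%) and 3 of the white side (4.84%).

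Motifs of widely active promoters were scarce in the members, as on the beige and white sides. The SP/KLF motif GGGCGGG was in 5.11% of members and 62.5% of peaks open in every pool. It was in 8.68% of all peaks, 3.88% of the beige side and 3.23% of the white side. The ETS motif CCGGAAG was in 1.65% of members and 27.2% of peaks open in every pool. Its share was 3.97% of all peaks, 1.94% of the beige side and 0% of the white side. AP-1 (TGANTCA) was in 14.7% of members and 17.9% of all peaks, RUNX (TGTGGTT) in 10.4% and 13.2%, TEAD (ACATTCC) in 6.31% and 7.73%, and STAT (TTCNNNGAA) in 19.2% and 17.0%. The other families were each in at most 2.25% of members. They were EBF (TCCCNNGGGA), NR3C (GNACANNNTGTNC), CRE (TGACGTCA), ESRR (TCAAGGTCA, which contains AGGTCA), MEF2, NFI (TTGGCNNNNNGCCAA, 1 member) and CTCF, with 0 members and 0.860% of all peaks. A match is a run of letters, not a bound site, and no test was made on these shares.

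**Figure D2:**
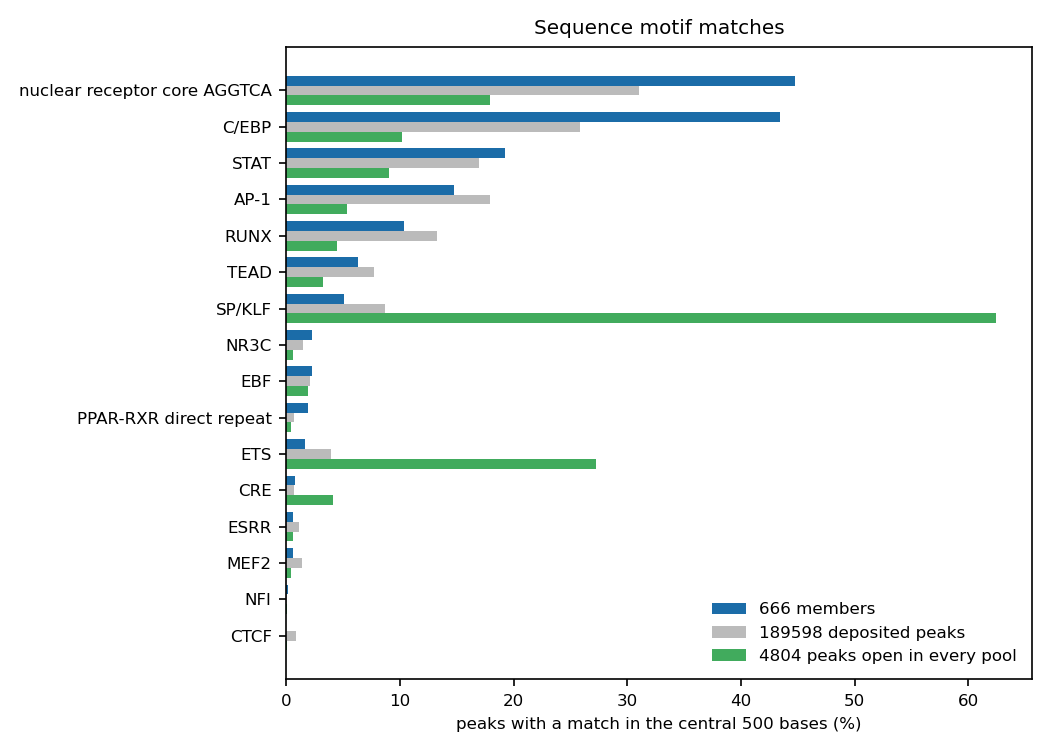
Share of peaks (%) with a match to each of 16 motif families in the central 500 bases, for the 666 members, all deposited peaks and the 4804 peaks open in every pool. C/EBP matches were in 43.4% of members and 25.9% of all peaks, and SP/KLF matches in 5.11% of members and 62.5% of the peaks open in every pool.

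The members fell on 534 nearest genes, of which 437 had 1 member. Acsl1, which activates fatty acids by joining them to coenzyme A, had 6. Pygb, a glycogen phosphorylase, and B3galt2, a galactosyltransferase, had 5 each. Ctcfl, Fbxo22, Pank3 and Prkar2b had 4, where Pank3 starts coenzyme A synthesis and Prkar2b is the regulatory subunit of protein kinase A that fat expresses most. The Ctcfl members belong to a run of 6 members within 43509 bases that ends at the start of Pck1 (chr2:173110163-173153672). A run of 5 within 20475 bases covered Plin1 and its neighbours Kif7 and Pex11a. All 4 Fbxo22 members lay in a run of 28555 bases that reaches into Nrg4. Of the 666 members, 117 (17.6%) had another within 10000 bases.

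In the 9 gene lists, 66 members lay in or nearest to a listed gene. The highest share of member peaks was at adipokine and secreted protein genes, where 5 of 10 genes had a member (Adipoq, Lep, Retn, Nrg4 and Vegfa) and 12 of 159 peaks (7.55%) were members, against the 0.351% of all peaks. Lipid droplet and lipolysis genes followed, with 5 of 15 genes (Plin1, Cidec, Lipe, G0s2 and Fitm2) and 4.49% of peaks, and fatty acid uptake genes, with 4 of 12 genes (Fabp4, Lpl, Acsl1 and Cav2) and 4.31% of peaks. The list of adrenergic signalling had the most genes with a member, 7 of 17. Among them were the receptors Adrb3 and Adra1a, the adenylyl cyclases Adcy3 and Adcy5, Prkar2b, and the natriuretic peptide clearance receptor Npr3.

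Fatty acid synthesis had 5 of 15 genes (Fasn, Acaca, Scd1, Elovl5 and Slc25a1) and triglyceride synthesis 3 of 12 (Dgat2, Gpat3 and Pck1), with 1.67% and 1.59% of peaks. Among adipogenic transcription factors 6 of 21 genes had a member (Pparg, Cebpa, Ebf3, Nfib, Nr3c1 and Zfp423), with the highest level near Cebpa (71.9 CPM in white and 46.1 CPM in beige nuclei). Thermogenic and mitochondrial regulators had 3 of 16 (Ppargc1a, Ppara and Dio2), 0.988% of peaks. Insulin action had 2 of 15 (Tbc1d4 among them) and 0.341% of peaks, about the share of all peaks. The lists were drawn up from adipocyte biology, so shares above that of all peaks describe where the members lie and are not tested.

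To ask whether these regions changed with cold or CL, counts of white and beige nuclei were summed per mouse and compared with edgeR's quasi-likelihood test over 47835 peaks, with all 666 members among them, at an adjusted p below 0.05. In bulk sums of this kind fewer nuclei of a type and less openness per nucleus cannot be told apart. The share of beige nuclei among adipocyte nuclei ran from 7.69% to 12.2% on day 0. It ran from 26.1% to 32.5% on day 7 of cold and from 14.5% to 23.5% on day 7 of CL. Its part in the results was not tested beyond the fits in white nuclei alone. The 6 contrasts with day 0 share its 3 mice.

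Against day 0, in the fit over all groups, 76 of the 666 members (11.4%) were called in at least 1 of the 6 contrasts, 53 lower and 23 higher. Over the same 6 contrasts 8.04% of all tested peaks were called (1739 lower, 2104 higher, 1 in both directions), and 7.22% of the 9634 peaks with at least 20 CPM in both adipocyte populations (525 lower, 170 higher, 1 in both directions). On day 1 of cold 4 members were called (2 higher, 2 lower), 0.601% of the 666, with 0.213% of all tested peaks called. CL on day 1 gave 27 calls (10 higher, 17 lower), 4.05% against 2.06%. On day 3 cold gave 23 calls (6 higher, 17 lower), 3.45% against 1.28%, and CL gave 34 (13 higher, 21 lower), 5.11% against 3.46%. On day 7 cold gave 31 calls (14 higher, 17 lower), 4.65% against 3.13%, and CL 44 (14 higher, 30 lower), 6.61% against 4.19%. On that day of CL the peaks with at least 20 CPM in both populations had 4.20% called (61 higher, 344 lower), and over all tested peaks 1101 were higher and 902 lower. The differences between these shares and splits were not tested. The rises include regions below 20 CPM on day 0, such as that upstream of Dpy19l1, which were members only through treated mice. The counts of rises, the splits and the shares called are thus not independent of the rule. How many of the 23 are of this kind was not counted.

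The median member differed little from day 0 in any contrast, by log2 fold changes of -0.10 to 0.06, with medians over all tested peaks of -0.03 to 0.01. Of the 76 members called in at least 1 of the 6 contrasts 0 were called in both directions, and 37 were called in 1 contrast only. On the beige side the medians were 0.84 on day 7 of cold and 0.76 on day 7 of CL, with 56 of 205 tested peaks higher in each. The share of beige nuclei given above was also higher than on day 0 in both, more so in cold. Its part was not tested.

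The number of calls and their balance depend on the method. In white nuclei alone the splits were 9 higher and 7 lower on day 1 of CL, 6 and 8 on day 3 of cold, 16 and 14 on day 3 of CL, 6 and 1 on day 7 of cold and 14 and 12 on day 7 of CL, so that of these 5 contrasts day 3 of cold alone kept more falls than rises. In the same order 440, 317, 1075, 158 and 849 of the 32541 peaks of that fit were called. With only the compared groups in the fit, day 7 of CL gave 17 higher and 9 lower, with 1018 of 30120 peaks called. With DESeq2 on the same counts 0 to 3 members were called in each contrast with day 0, beside 0 to 29 of all peaks. The only one of these members that was lower was the Scd1 member on day 1 of CL. With adipocyte nuclei of 1000 to 4000 counts only, 0 to 10 of 651 members were called, beside 1 to 86 of all 13321 peaks. The median member was then higher than day 0 by 0.04 to 0.09 on days 3 and 7. The depth of adipocyte nuclei moved with the groups, from medians of 1331 to 2697 counts per nucleus in the day 0 mice to 1932 to 6686 in the day 7 CL mice. Without TMM scaling the split moved to 12 higher and 13 lower on day 1 of CL, 9 and 15 on day 3 of cold, and 18 and 14 on day 7 of cold. In that order 971, 670 and 1605 of all tested peaks were called. Counts summed over the 8 adipocyte markers moved too, with 2059 to 2455 CPM in the day 0 mice and 1653 to 2123 CPM in the mice of days 3 and 7. On day 1 they were 2346 to 2607 CPM in cold and 1878 to 2030 CPM with CL. The part of depth per nucleus was not tested beyond these values.

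**Figure D3:**
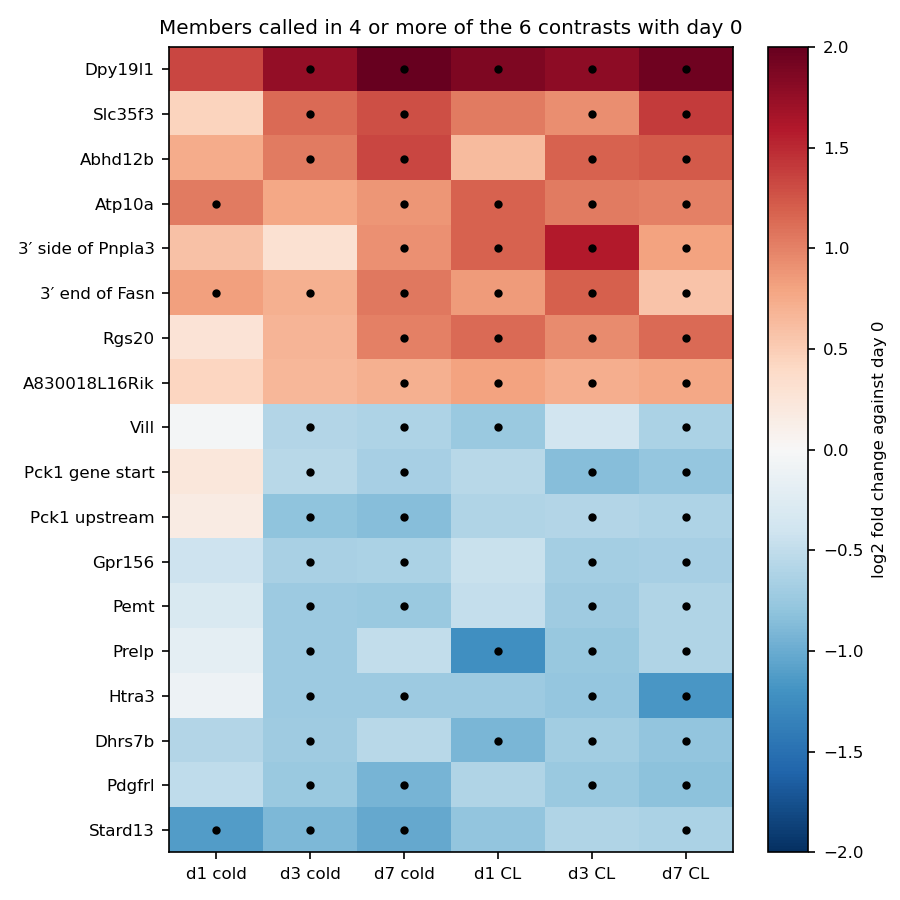
Log2 fold change against day 0 (colour) of the 18 members called in 4 or more of the 6 contrasts, with a black dot where the edgeR adjusted p was below 0.05; rows are named by the nearest gene start unless the position is given. The 8 members in the upper rows were higher and the 10 in the lower rows lower than on day 0 in every contrast with a dot.

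The largest rise was at a region between genes 10313 bases upstream of Dpy19l1, which encodes a mannosyltransferase (chr9:24512824-24514082). Its normalised level, in CPM of the tested peaks with TMM factors, was 13.7, 7.62 and 8.78 in the day 0 mice. In cold it was 26.8, 24.9 and 33.6 on day 1, 39.1, 38.5 and 38.1 on day 3, and 53.5, 54.9 and 35.1 on day 7. With CL it was 14.6, 35.8 and 44.0 on day 1, 40.6, 43.1 and 33.7 on day 3, and 44.4, 40.8 and 49.5 on day 7. All 18 treated mice lay above the 3 day 0 mice, although day 1 of cold was not called. On day 0 the region rested on 6, 2 and 7 nuclei, and the 14.6 CPM of mouse 1 on day 1 of CL was 1 nucleus. The day 0 mean of 10.0 CPM is below 20 CPM, so the region was a member only through treated mice. Its rise is therefore not independent of the rule. The log2 fold changes were 1.76 (SE 0.29, edgeR adjusted p = 1.69e-05) on day 3 of cold and 1.99 (SE 0.30, adjusted p = 7.08e-07) on day 7, and 1.86, 1.79 and 1.95 on days 1, 3 and 7 of CL. In nuclei of 1000 to 4000 counts the 5 values ran from 1.14 to 1.47 and passed the threshold in none (adjusted p of 0.0904 to 0.284), and DESeq2 kept 4 of the 5. Without mouse 3 the day 1 CL value was 1.33, with an adjusted p of 0.476.

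The region over the 3′ end of Fasn was called by edgeR in all 6 contrasts. Its levels were 63.9, 53.4 and 52.7 CPM on day 0. They were 65.4, 169 and 105 CPM on day 1 of cold, 93.5, 93.8 and 93.3 on day 3, and 135, 141 and 91.6 on day 7. With CL they were 58.6, 113 and 105 CPM on day 1, 134, 151 and 105 on day 3, and 77.3, 93.0 and 94.0 on day 7. Except for mouse 1 of day 1 CL, which had 4 nuclei with a read, each treated mouse exceeded the day 0 mice. That mouse had a TMM factor of 1.51, against 0.949 to 1.02 in all others, which lowers its levels. Its place below a day 0 mouse here depends on this scaling. The log2 fold change was largest on day 3 of CL (1.20, SE 0.17, edgeR adjusted p = 4.12e-09), where it passed in all 13 alternative analyses, with values of 0.97 to 1.53. It was 1.05 on day 7 of cold (adjusted p = 1.60e-05) and 0.57 on day 7 of CL (adjusted p = 0.045). The day 1 cold value of 0.82 fell to 0.51 without mouse 2 of that group (adjusted p = 0.474).

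Another rise was at the region just past the 3′ end of Pnpla3, a lipid droplet protein with lipase and acyltransferase activity that is induced by feeding (chr15:84189606-84191135, 1871 bases upstream of Samm50). It had 18.3, 41.9 and 30.1 CPM on day 0, and 36.5, 31.8 and 36.8 CPM on day 3 of cold, within the day 0 range. On day 3 of CL it had 90.7, 102 and 73.6 CPM, above all mice of both other groups. On day 1 of CL the levels were spread, at 14.6, 95.6 and 66.5 CPM. On day 7 they were 86.0, 46.9 and 38.5 CPM in cold and 53.2, 44.2 and 56.0 CPM with CL. The log2 fold change on day 3 of CL was 1.59 (SE 0.20, edgeR adjusted p = 5.61e-11) and held in all 13 alternative analyses (1.37 to 2.30).

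Further members also rose against day 0. A region 23005 bases upstream of Slc35f3, which encodes a solute carrier, went from 15.97, 19.1 and 15.0 CPM on day 0 to 37.2, 48.5 and 42.0 CPM on day 7 of cold (log2 fold change 1.28, edgeR adjusted p = 0.00158) and 48.4, 49.9 and 28.02 CPM on day 7 of CL (1.40, adjusted p = 8.88e-05). Day 0 and both day 7 groups did not overlap. In Pygl, the liver-type glycogen phosphorylase, 2 intronic members rose. The one nearest the start of Abhd12b had 18.3, 3.81 and 15.0 CPM on day 0 and 48.8, 37.2 and 31.7 CPM on day 7 of cold (1.34, adjusted p = 0.00167), and the other rose by 1.02 on day 3 of CL (adjusted p = 0.00289). Regions near Atp10a, which encodes a lipid flippase, and in Atp6v1h, a proton pump subunit (nearest gene start Rgs20), rose by 0.88 to 1.18 and 0.94 to 1.13 in the contrasts where they were called. Where the Slc35f3, Abhd12b, Atp10a and Rgs20 values were repeated with DESeq2, none was called (adjusted p of 0.0736 to 0.796). All day 0 mice lay below 20 CPM at the Slc35f3 and Abhd12b regions, and the day 0 mean at the Rgs20 region was 14.6 CPM. These levels are over tested peaks, which held 461522 of the 601696 adipocyte counts of day 0 mouse 1, while the rule took all counts. On the rule's scale the day 0 mean of 23.1 CPM at the Atp10a region also lies below 20 CPM. Like the Dpy19l1 region, these regions were members only through treated mice, so their rises are not independent of the rule.

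Members that fell in the edgeR fit included the gene starts of defining fat cell genes, but DESeq2 called none of these gene start falls. At the start of Pck1 (chr2:173152480-173153672) the levels were 116, 130 and 118 CPM on day 0 and 161, 150 and 98.8 CPM on day 1 of cold. On day 3 they were 70.7, 75.4 and 112 CPM in cold and 54.9, 65.2 and 69.3 CPM with CL, and on day 7 they were 63.9, 71.1 and 84.8 CPM in cold and 51.01, 95.3 and 95.6 CPM with CL. Each of these 12 mice lay below all day 0 mice. The largest fall was on day 3 of CL, with a log2 fold change of -0.85 (SE 0.15, edgeR adjusted p = 3.85e-05), and day 1 of cold was not called. DESeq2 gave -0.86 with an adjusted p of 0.104 there, and nuclei of 1000 to 4000 counts -0.65 with 0.130. The member 1064 bases upstream moved with it, by -0.80 on day 3 of cold (adjusted p = 0.0065) and -0.84 on day 7 of cold (adjusted p = 0.00502), but in white nuclei alone the day 7 value was -0.41 (adjusted p = 0.417).

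At the start of Adipoq (chr16:23146179-23146785) the levels were 66.2, 45.7 and 56.4 CPM on day 0, 39.5, 37.2 and 28.3 CPM on day 7 of cold and 26.98, 22.7 and 42.9 CPM on day 7 of CL. Neither day 7 group overlapped day 0, with log2 fold changes of -0.72 (adjusted p = 0.0336) and -0.97 (adjusted p = 0.000945). The day 7 CL call was lost with DESeq2, at a fold change of -0.91 (adjusted p = 0.232), and in nuclei of 1000 to 4000 counts, at -0.66 (adjusted p = 0.514). Cidec fell with CL, by 0.45 on day 3 (adjusted p = 0.0471) and 0.53 on day 7 (adjusted p = 0.0173), and its levels went from 141, 126 and 112 CPM on day 0 to 75.03, 89.6 and 110 CPM on day 7. The start of Plin1 fell on day 7, by 0.61 in cold and 0.66 with CL (adjusted p of 0.0499 and 0.0156). The member 3702 bases past the start of Cebpa, which encodes an adipogenic factor, fell by 0.47 on day 7 of CL (adjusted p = 0.0465), with groups that overlapped. DESeq2 called none of the Cidec, Plin1 and Cebpa falls. In nuclei of 1000 to 4000 counts 0 members and 5 of all 13321 peaks were called on day 7 of CL.

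The largest falls on day 1 of CL were at an intron of Agbl1, 40200 bases upstream of Scd1, the stearoyl-CoA desaturase gene, and in Adrb3, the gene of the receptor that CL activates. The Scd1 member had 63.9, 57.2 and 56.4 CPM on day 0 and 0, 11.9 and 23.2 CPM on day 1 of CL, from 0, 2 and 29 nuclei (log2 fold change -1.41, SE 0.27, edgeR adjusted p = 0.00026). The Adrb3 member, 10914 bases from its gene start, had 52.5, 57.2 and 36.4 CPM and then 14.6, 5.97 and 17.6 CPM (-1.37, SE 0.30, adjusted p = 0.00247). Agbl1 gave -1.46 (adjusted p = 0.000843). Without mouse 3 of that group the log2 fold changes were -2.58 for Scd1, -2.21 for Adrb3 and -1.17 for Agbl1, none of the 3 passed (adjusted p of 0.208, 0.295 and 0.482) and the member count went from 27 to 0. On day 3 the Scd1 member was back at 52.5, 50.3 and 39.9 CPM with CL and was not called.

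Other members fell in 3 or 4 contrasts with day 0 each. A region 6900 bases upstream of Htra3, a secreted protease, had 45.6, 61.0 and 69.0 CPM on day 0 and 22.5, 28.4 and 36.3 CPM on day 7 of CL (log2 fold change -1.17, SE 0.20, edgeR adjusted p = 2.08e-05). A region in Gm42906, 10875 bases upstream of Stard13 fell in all 3 cold groups, with 21.01, 22.2 and 33.6 CPM on day 1 against 45.6, 49.6 and 63.9 CPM on day 0 (-1.11, adjusted p = 0.0207). An intron of Pcx, the pyruvate carboxylase gene, went from 50.2, 49.6 and 42.6 CPM to 19.8, 13.9 and 25.2 CPM on day 1 of cold (-1.12, adjusted p = 0.0392). An intron of Mtus1 (nearest gene start Pdgfrl) fell by 0.92 on day 7 of cold (adjusted p = 0.0073) and by 0.82 on day 7 of CL (adjusted p = 0.00754). DESeq2 called none of these.

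**Figure D4:**
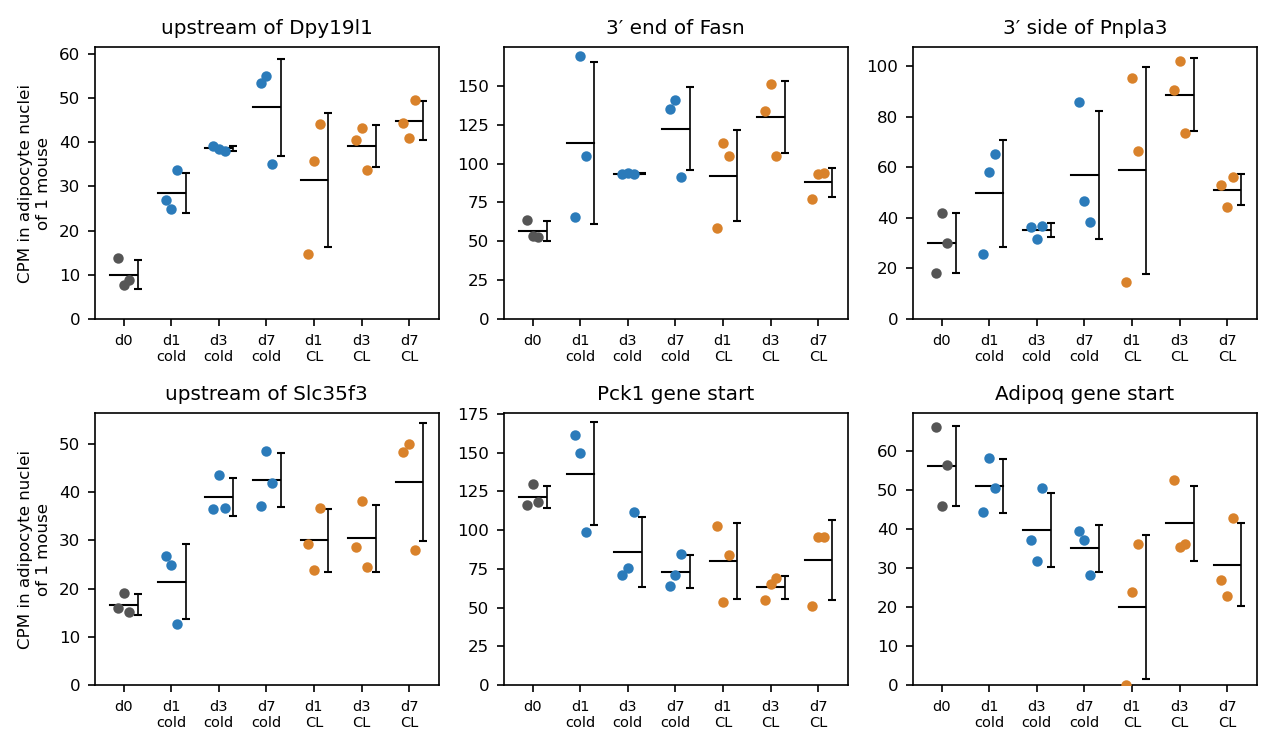
Normalised level (CPM of tested peaks) of 6 members in the adipocyte nuclei of each of 21 mice, by group, with the mean of 3 mice as a line and the SD as an error bar beside it. Upstream of Dpy19l1 all treated mice lie above day 0, with mouse 1 of day 1 CL resting on 1 nucleus. The day 3 CL mice lie at 73.6 to 102 CPM past the 3′ end of Pnpla3, above all day 0 and day 3 cold mice. The Pck1 and Adipoq gene starts are lower on day 7 than on day 0.

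By list, of the 66 listed members 1 rose and 12 fell in at least 1 contrast with day 0, where 11.4% of all members and 8.04% of all tested peaks were called. Nr3c1, the glucocorticoid receptor gene, was the one that rose (0.81 on day 7 of cold, adjusted p = 0.0491). Those that fell were 4 of the 13 adrenergic signalling members (among them Adrb3, Adcy5 and Prkar2b), 2 of 8 lipid droplet members (Plin1 and Cidec), 2 of 4 triglyceride synthesis members (both at Pck1), and 1 each among adipokines (Adipoq, of 12), fatty acid uptake (Acsl1, of 10), fatty acid synthesis (Scd1, of 6) and transcription factors (Cebpa, of 7). Of the 4 thermogenic and 2 insulin members none was called by edgeR. Among the falls listed here, DESeq2 called that of Scd1 alone. The median log2 fold change on day 7 of CL was -0.34 over the adrenergic members and -0.30 over the lipid droplet members, beside -0.10 over all members and -0.0045 over all tested peaks. The region at the 3′ end of Fasn is not counted with its list, because its centre lies outside the gene.

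Between the stimuli, 10 members differed on day 3 (6 higher with CL, 4 lower), 1.50% of the members beside 1.79% of all tested peaks. The region past the 3′ end of Pnpla3 led, with 90.7, 102 and 73.6 CPM with CL against 36.5, 31.8 and 36.8 CPM in cold (log2 fold change 1.29, SE 0.14, edgeR adjusted p = 1.10e-16), and it held in all 13 alternative analyses (1.07 to 1.55). A region 1071 bases upstream of Treh, the trehalase gene, followed (0.77, adjusted p = 0.000221), then the 3′ end of Fasn (0.48, adjusted p = 0.00457). An intronic member of Adipor2, an adiponectin receptor, was lower with CL, at 40.6, 39.7 and 38.7 CPM against 54.8, 68.7 and 76.1 CPM in cold (-0.61, SE 0.14, adjusted p = 0.00417), and a second member of Adipor2 moved the same way (-0.48, adjusted p = 0.048). With DESeq2 the count was 1, beside 10 of all peaks, and in nuclei of 1000 to 4000 counts 2, beside 14 of all peaks. On day 7, 0 members were called by edgeR or DESeq2, and edgeR called 0.023% of all tested peaks. At an unadjusted p below 0.05 in edgeR stood 38 of the 666 members and 3058 of the 47835 tested peaks.

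The members' share of the counts, which the rule used in pooled form, ran from 1.75% to 2.31% of the white counts and, in the 17 mice with at least 20 beige nuclei, from 1.80% to 2.41% of the beige counts. Of all adipocyte counts it was 2.05% to 2.24% in the day 0 mice. In cold it was 2.10% to 2.32% on day 1, 1.89% to 2.05% on day 3 and 1.96% to 2.03% on day 7. With CL it was 1.92% to 1.94% on day 1, 1.89% to 2.08% on day 3 and 1.79% to 2.27% on day 7. The lowest value belonged to the mouse with the deepest nuclei (6686 counts per nucleus), and the day 1 CL mice had medians of 1437.5 to 1619 counts. The part of depth in this share was not tested.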

How the data were processed

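Nuclei of whole iWAT of 21 mice were profiled by snATAC-seq. The authors aligned reads to mm10 and called peaks with the tools that the submitters' processing notes name (Bowtie2, SAMtools, MACS2 and Signac), and they deposited counts of 189598 peaks in 32552 nuclei, in which 65588856 of 65589001 stored entries are 1, so a count is in effect a nucleus with a read. GEO's 4 samples are lanes that hold all groups; mouse, group and cell type were taken from the deposited table of nuclei. The 3 mice of a group are separate animals.

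Counts of Adipocyte and Beige nuclei were summed per mouse and fitted over all 7 groups with edgeR 4.0.16 in R 4.3.3 (TMM, filterByExpr with a minimum count of 10 and a minimum total of 15, quasi-likelihood test, prior count 2), with Benjamini-Hochberg adjustment over all tested peaks at 0.05. DESeq2 1.42.0 was an alternative. Precision follows from 29 to 933 adipocyte nuclei per mouse and covers counting and mouse spread only.

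Positions were read as 1-based; sequence came from GRCm38.p6 and gene starts from GENCODE vM21 protein-coding genes. Named members were the 10 with the highest lower adipocyte CPM, the 5 with the largest fold, 3 on each side of the thresholds, those at listed genes, the genes with the most members, and in each contrast the 3 called members with the largest change in each direction with a mean of at least 20 counts and all 3 mice on the same side; others named were chosen after their values were seen. The members and lists were chosen with earlier results of these data known. Some members that this rule names are not reported here.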

Additional observations from a re-analysis of the deposited data

Results flagged for a closer look

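The effects of CL and of cold on day 3 differed by the direct edgeR contrast for 10 members, given as log2 fold changes of CL over cold with 3 mice a group; these are 1.50% of the members, and 1.79% of all tested peaks were called. Lower with CL were the peaks nearest Adipor2 (-0.61, adjusted p = 0.00417, and -0.48, adjusted p = 0.048), Ptpn4 (-0.61, adjusted p = 0.0278) and Fam92a (-0.51, adjusted p = 0.0487). Higher with CL were those nearest Cpeb2 (0.45, adjusted p = 0.0321), Dus1l, at the 3′ end of Fasn (0.48, adjusted p = 0.00457), Fam214a (0.53, adjusted p = 0.0405), Inip (0.61, adjusted p = 0.0187), Treh (0.77, adjusted p = 0.000221) and Samm50, past the 3′ end of Pnpla3 (1.29, adjusted p = 1.1e-16). These 10 were picked by this contrast, so how far the mice of the groups lie apart at them is no separate support. DESeq2 kept 1 of them, the Samm50 peak. With the replicate block the Ptpn4 and Inip calls were lost (log2 fold changes of -0.49 and 0.51, adjusted p of 0.203 and 0.146).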

How the results depend on the processing

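Numbers of called members are given in the order day 1 cold, day 1 CL, day 3 cold, day 3 CL, day 7 cold, day 7 CL (each against day 0) and CL against cold on day 3. DESeq2 gave 0, 2, 0, 3, 2, 1 and 1, beside 0, 27, 1, 12, 29, 11 and 10 of all peaks. Without a filter on low counts they were 0, 8, 3, 9, 6, 9 and 3, with 189547 peaks tested and 6, 339, 140, 807, 629, 835 and 352 called. White nuclei alone gave 2, 16, 14, 30, 7, 26 and 14, beside 43, 440, 317, 1075, 158, 849 and 716 of 32541 peaks. Nuclei of 1000 to 4000 counts, a range chosen after seeing the data, gave 0, 3, 1, 10, 3, 0 and 2, with fewer nuclei. There 1, 40, 7, 86, 28, 5 and 14 of 13321 peaks were called. Fitting only the compared groups gave 26 for day 7 CL, beside 1018 of 30120 peaks, and total counts without TMM moved no count past 1.5 times. Deviations of same-numbered mice from their group means had correlations of -0.063 to 0.054 over all tested peaks. Counting noise lowers such correlations, so they cannot tell whether these mice shared a batch. Same-numbered mice were not treated as pairs. The study ran 3 independent batches, and whether a mouse's number marks its batch is not given in the sources used here. The replicate block gave 1, 29, 14, 36, 31, 33 and 6, beside 60, 1096, 375, 1507, 1434, 1395 and 578 of 47835 peaks. Leaving out 1 mouse gave ranges of 0 to 3, 0 to 23, 5 to 22, 10 to 31, 11 to 17, 9 to 55 and 2 to 9, and 0 to 1 for CL against cold on day 7. The day 1 CL count was 0 without its mouse 3, that of day 3 cold 5 without its mouse 1, that of day 3 CL 10 without its mouse 2, and that of day 7 CL 9 without its mouse 1 and 55 without its mouse 3. In that order 4, 167, 415, 217 and 2251 of all tested peaks were called. Without mouse 1, 2 or 3 of day 0 the day 7 CL count was 14, 21 or 16, beside 1054, 1017 or 543 of all tested peaks. The causes were not tested. Of 519 repeats of 40 named calls, 354 stayed past the threshold, 165 did not and 0 changed direction; 3 calls passed in every alternative, the Samm50 peak on day 3 of CL against day 0 and against cold, and the Fasn end on day 3 of CL. The number of members was 2156 at a minimum of 10 CPM, 45 at 40 CPM, 951 at 3-fold, 299 at 6-fold and 711 with mice weighted equally, of which 495 were shared.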
